A study of Mus musculus with 12 samples.

Results

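Keratin genes were chosen by name as the protein-coding mouse genes whose symbol is Krt followed by a number, with or without a letter. This gave 53 genes of 21900 protein-coding genes on GRCm38.p6, 28 of type I and 25 of type II. Keratin-associated protein genes and the pseudogenes Krt74 and Krt8-ps were left out, and Krt85 was not analysed here. The data are contacts of ESRP1, an epithelial splicing regulator, mapped by enhanced crosslinking and immunoprecipitation (eCLIP), a method that fixes protein to RNA with ultraviolet light and reads each contact to the nucleotide. Epidermis came from the back skin of mouse pups on postnatal day 1. All libraries, inputs included, were of genotype Esrp1FLAG/FLAG, in which the endogenous protein carries a FLAG tag, and no untagged animal is among them. There were 12 libraries, a FLAG immunoprecipitation and an input for each of 6 biological replicates, and the authors deposited 3 lists of called sites, each made from 2 replicates together with input: list 1 from replicates 1 and 2, list 2 from 3 and 4, and list 3 from 5 and 6.

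Keratins are the intermediate filament proteins of epithelial cells. A type I keratin pairs with a type II keratin to build a filament, and the pair in use changes with the cell: Krt5 and Krt14 in the basal layer of the epidermis, Krt1 and Krt10 in the layers above it, Krt8 and Krt18 in simple epithelia, and further sets in hair follicle sheaths and in the hair shaft. Type I genes lie together on chromosome 11 and type II genes on chromosome 15, with the type I gene Krt18 beside Krt8 on chromosome 15. ESRP1 is best known for controlling alternative exons of epithelial transcripts.

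The lists held 73602, 40014 and 53864 sites. Read numbers are absent from them, which leaves library depth unknown, and RNA abundance was not measured. At 0 sites, an unbound transcript, a rare one and one below the caller's threshold cannot be told apart, nor can fewer cells of a type and less RNA per cell. Sites lost because reads had several alignments, or because input was high, would also read as 0. Each list is a single value of 1 condition, and an exact two-sided sign-flip test over 3 lists cannot go below p = 0.25, so that values are given for each list with their mean and SD and no test was made. In marker genes of other skin cells, a site in any list was present in 3 of 6 melanocyte genes, 3 of 8 dermal fibroblast genes, 1 of 7 immune genes and 0 of 8 endothelial and muscle genes, where 34.7% of all protein-coding genes had one. Summed sites in lists 1, 2 and 3 were 10, 9 and 6 for melanocytes, of which Mitf held 6, 7 and 6. Tyrp1, Tyr and Mlana had no site. The sums were 4, 4 and 4 for fibroblasts and 7, 5 and 5 for immune cells (all in Csf1r).

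Sites lay on the strand of the gene in 35 of 53 keratin genes (66.0%), against a background of 34.7% of all protein-coding genes. A site in each of the 3 lists was found in 25 keratins (47.2%, background 19.9%). Regions were built by merging sites of any list that were spaced by 10 nt or less. A region with sites of all 3 lists was found in 24 keratins (45.3%), where the background was 17% of all protein-coding genes and 15.7% of those whose span lay in the range of the keratins, 2812 to 50624 nt. In all, keratins held 314, 191 and 326 sites in lists 1, 2 and 3 (277 ± 74.7, SD, n = 3 lists), which was 0.427%, 0.477% and 0.605% of each list. These are shares of called sites and not of reads. The keratins held 174 regions, of which 51 had sites of all 3 lists, 41 of 2 lists and 82 of a single list. In the 36 keratins whose strand is given by the RefSeq promoter table, all 487 sites were on the strand of the gene and 0 on the other, whereas 10.5% of sites in protein-coding spans with a tabulated strand were on the opposite strand, overlapping genes included. For 11 further keratins, Krt15, Krt16, Krt17, Krt6a and Krt6b among them, the strand was taken from the sites themselves, which also lay on 1 strand in each gene.

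**Figure D1:**
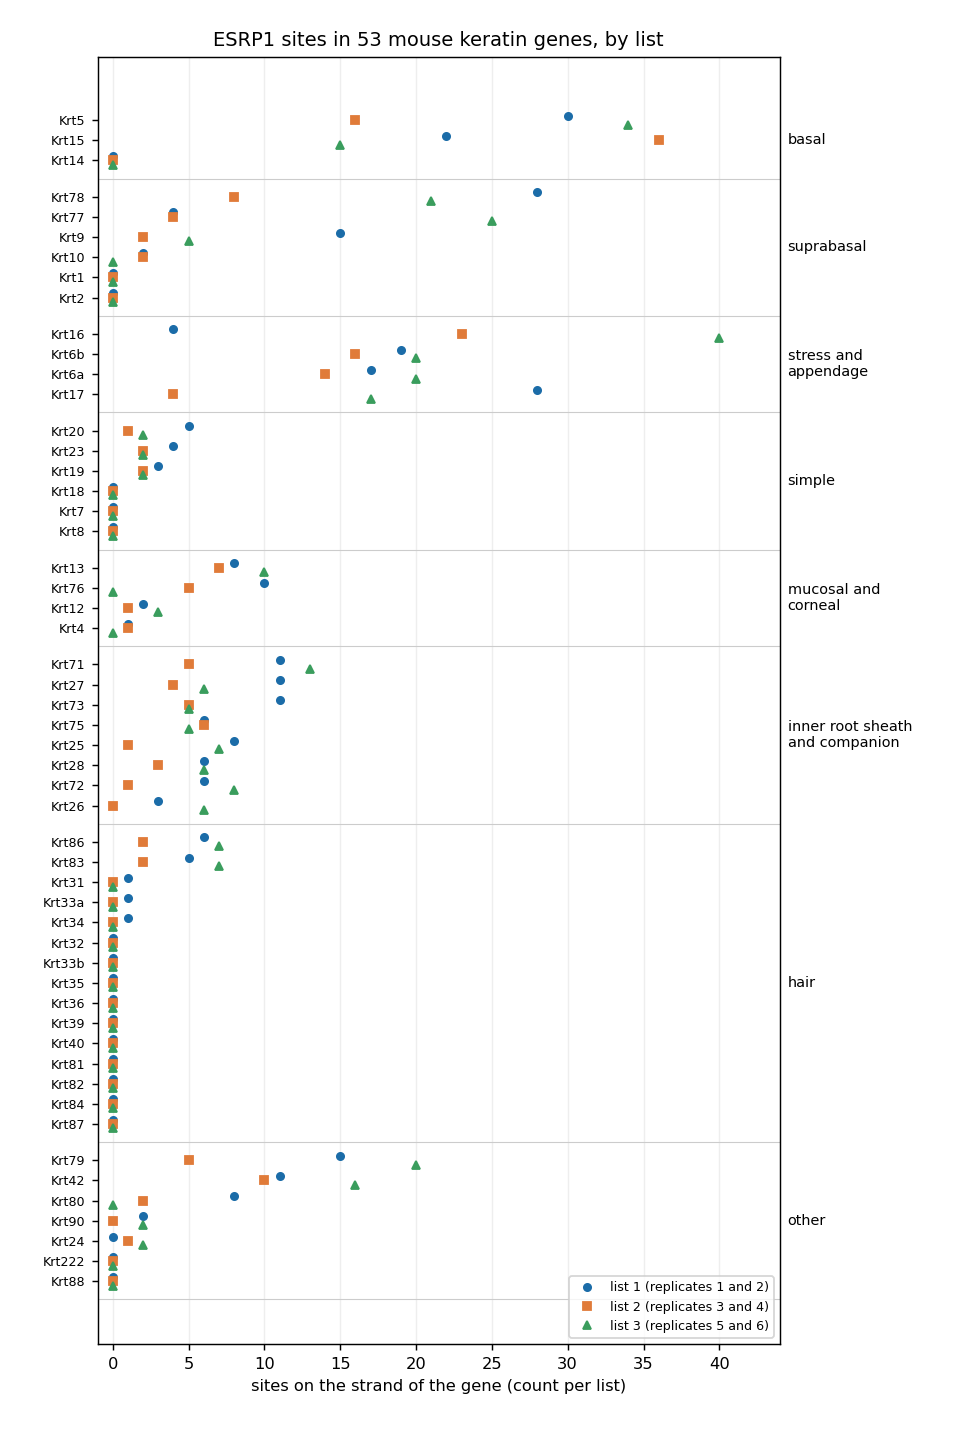
Number of ESRP1 sites (x axis) in each of 53 keratin genes (y axis), grouped by class, with 1 symbol per list. Krt5, Krt15, Krt16, Krt78, Krt6b, Krt6a and Krt17 hold the most sites, and Krt14, Krt1 and Krt2 sit at 0 in every list.

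Basal keratins were uneven. Krt5, the type II keratin of the basal layer, held 30, 16 and 34 sites in lists 1, 2 and 3 and 7 regions found in all 3 lists, the most of any keratin. Krt15, a type I keratin of basal cells and of the hair follicle bulge, held 22, 36 and 15 sites and 3 such regions. Krt14, the partner of Krt5, held 0, 0 and 0. Lists 1 and 3 were higher than list 2 for Krt5, while list 2 was the highest for Krt15. The summed basal count was therefore nearly level, at 52, 52 and 49 sites, or 17.0 ± 0.577 sites per gene (SD, n = 3 lists). This small SD comes from opposite changes in the 2 genes. As a share of each list, basal sites were not level, at 0.0707%, 0.130% and 0.0910%.

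Suprabasal keratins included both empty and well-covered genes. Krt1 and Krt2, type II keratins of the differentiating epidermis, had no site in any list. Krt10, the partner of Krt1, had 2, 2 and 0 sites, none of them in a region of all 3 lists, and its highest scores were at percentiles 53.3 and 71.3 of lists 1 and 2. All lay 530 to 532 nt from the 5′ end of a span of 12196 nt, where Krt14 and Krt15 span 4349 and 4191 nt. Which Krt10 transcript these sites belong to was not tested. Krt9, known from palm and sole skin, had 15, 2 and 5 sites and 2 regions. Krt77, a suprabasal type II keratin, had 4, 4 and 25 sites, so that list 3 held most of them. Krt78 had 28, 8 and 21 sites and 4 regions, in a span of 50624 nt that is far longer than any other keratin span. The class came to 49, 16 and 51 sites, or 6.44 ± 3.28 per gene.

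Basal keratins exceeded suprabasal keratins by 9.17, 14.7 and 7.83 sites per gene in lists 1, 2 and 3 (mean difference 10.6 ± 3.62, SD, n = 3 lists). The direction was the same in the 3 lists. The difference rests on 2 basal genes, since Krt14 was empty, and without Krt15, Krt16, Krt76 and Krt77 it was 7.80.

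All 4 stress and appendage keratins, which are made in wounded epidermis, nail and the outer root sheath, had a region in all 3 lists (background 17%). Krt6a had 17, 14 and 20 sites and Krt6b 19, 16 and 20, with 4 regions each. Both varied little between lists. Their type I partners varied more: Krt16 had 4, 23 and 40 sites and Krt17 had 28, 4 and 17. List 1 was the lowest for Krt16 and the highest for Krt17. The class held 18.5 ± 5.17 sites per gene. Its difference from the basal class changed sign between lists (basal minus stress and appendage 0.333, 3.08 and -7.92 sites per gene) and was smaller than its SD (-1.50 ± 5.72).

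Simple and hair keratins held few sites compared with the other keratin classes. A site in any list was present in 3 of 6 simple and 5 of 15 hair keratins, where 34.7% of all protein-coding genes had one. A region in all 3 lists was present in 3 simple and 2 hair keratins, where the background was 17% of protein-coding genes. Krt8, Krt18 and Krt7, the main keratins of simple epithelia, had none. Krt19, a simple keratin also found in skin appendages, had 3, 2 and 2 sites, Krt20, of the gut, had 5, 1 and 2, and Krt23 had 4, 2 and 2, each with 1 region in all 3 lists. Of 15 hair keratins, which form the hard filaments of the hair shaft and nail, 10 had no site: Krt32, Krt33b, Krt35, Krt36, Krt39, Krt40, Krt81, Krt82, Krt84 and Krt87. Krt86 had 6, 2 and 7 sites and Krt83 had 5, 2 and 7. Krt31, Krt33a and Krt34 had 1 site each, in list 1 alone. Simple keratins averaged 1.28 ± 0.631 and hair keratins 0.711 ± 0.385 sites per gene, and the difference of 0.567 ± 0.500 was close to its spread between lists.

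Keratins of the inner root sheath and companion layer, the sheaths around the growing hair, had sites in 8 of 8 genes (background 34.7%). Krt71 had 11, 5 and 13 sites and 3 regions in all 3 lists. Krt27 had 11, 4 and 6 sites, Krt73 had 11, 5 and 5, Krt75 had 6, 6 and 5, Krt25 had 8, 1 and 7, Krt72 had 6, 1 and 8 and Krt28 had 6, 3 and 6. Krt26 was the exception with 3, 0 and 6 sites, none of its regions being common to the 3 lists. List 2 held the fewest sites in most of these genes, as it did overall. Per gene the class held 5.96 ± 2.48 sites, and it exceeded hair keratins by 6.82, 2.86 and 6.07 sites per gene in the 3 lists.

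Among mucosal and corneal keratins, Krt13, of the oral and oesophageal lining, had 8, 7 and 10 sites and 2 regions in all 3 lists. Its partner Krt4 had 1, 1 and 0 sites. Krt12, of the cornea, had 2, 1 and 3, and Krt76, of the palate, had 10, 5 and 0. Of the genes placed in no class, Krt79 had 15, 5 and 20 sites with 3 regions and Krt42 had 11, 10 and 16 with 2. Krt80 had 8, 2 and 0 sites, Krt90 had 2, 0 and 2, Krt24 had 0, 1 and 2, and Krt222 and Krt88 had none.

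**Figure D2:**
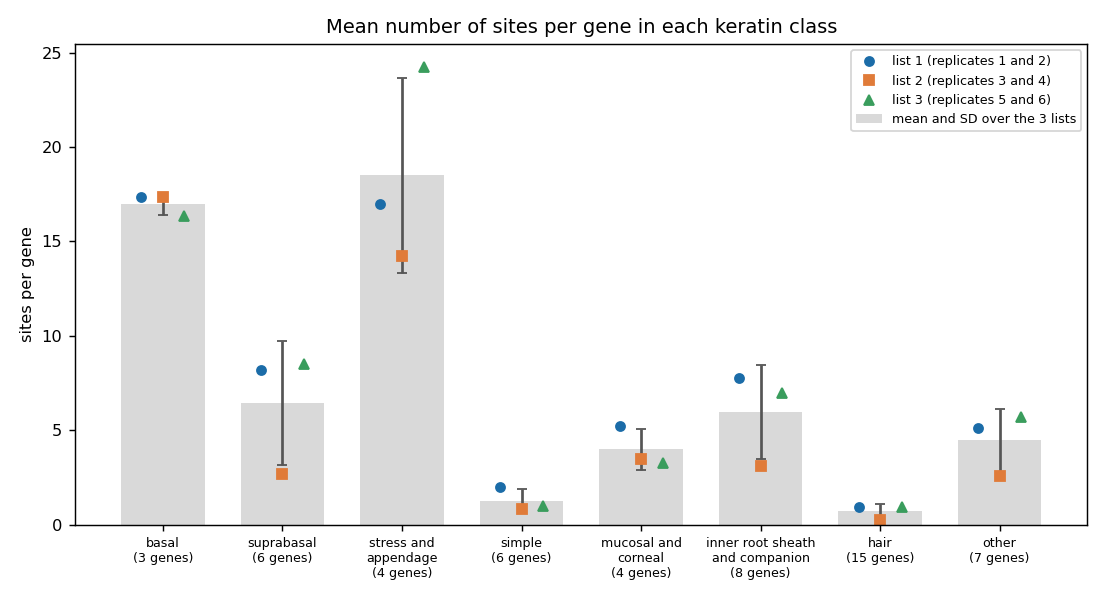
Sites per gene (y axis) in 8 keratin classes (x axis); bars are means over the 3 lists, error bars are SD and symbols are single lists. Basal and stress and appendage keratins average 17.0 and 18.5 sites per gene, simple and hair keratins 1.28 and 0.711.

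Relative to span length the order changed in part. Krt78, the gene with the fourth highest number of sites (57 over the 3 lists), had 1.13 sites per kb of span. The suprabasal class, with 6.44 sites per gene behind only the stress and appendage and the basal class, had 1.24 per kb. This was below inner root sheath and companion (2.00), mucosal and corneal (1.85) and unclassed keratins (1.28). Krt78 made up 50624 nt of the 93.9 kb of suprabasal span, so the place of the class depends in part on this gene. Over the 3 lists together, Krt16 held 23.8 sites per kb of span, Krt15 17.4, Krt5 13.7, Krt6b 12.9, Krt6a 11.6 and Krt17 10.2. These are the 6 highest values, and all belong to basal or stress and appendage keratins. Krt13 followed with 5.90 and Krt42 with 5.23. Spans include introns, whose lengths differ between genes.

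Keratins that pair in filaments did not hold similar numbers of sites in every case. The basal pair held 80 sites over the 3 lists in Krt5 and 0 in Krt14. The suprabasal pair held 0 in Krt1 and 4 in Krt10. Both members of the simple pair, Krt8 and Krt18, were at 0. In the pair of oral epithelium Krt13 held 25 and Krt4 held 2. Among stress keratins both sides were covered, with 51 in Krt6a, 55 in Krt6b, 67 in Krt16 and 49 in Krt17. Type II genes averaged 7.16, 3.68 and 7.48 sites per gene in the lists and type I genes 4.82, 3.54 and 4.96, a difference (type I minus type II) of -1.67 ± 1.32.

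A larger share of keratin sites than of other sites lay near the 5′ ends of the genes, though not in every keratin class. In 26 of the 35 keratins with sites, at least 1 site lay within the first 600 nt of the span. This window was chosen after the positions were seen. The share of other genes with a site in it is not given here, so the count of genes has no background. The window held 28.7% of keratin sites in list 1 (90 of 314, 95% exact binomial interval 23.7 to 34.0), 51.3% in list 2 (98 of 191, 43.99 to 58.6) and 35.3% in list 3 (115 of 326, 30.1 to 40.7). In other protein-coding genes of the same range of span it held 9.995%, 10.9% and 11.5%. Neighbouring sites are not independent, so these intervals are too narrow, and they cover counting error only. The means were 38.4% ± 11.6 for keratins and 10.8% ± 0.778 for the other genes, and each list showed the same direction. Without Krt15 and Krt16, which held most of the list 2 sites there, the keratin mean was 32.6% ± 1.84. Without Krt78, whose span sets the upper end of the range, it was 40.9% ± 11.4. Other genes in the range of span of the remaining keratins had 13.0% ± 1.19. Only the ends of each range were matched and not the lengths within it. A fixed window covers more of a short span, so these shares are not matched for length.

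Within that window most sites lay between 200 and 499 nt. Counting all lists, 8 sites lay 100 to 199 nt from the 5′ end, 74 at 200 to 299 nt, 148 at 300 to 399 nt, 67 at 400 to 499 nt and 6 at 500 to 599 nt. The 300 to 399 nt bin drew on 15 genes and the 200 to 299 nt bin on 13. Without Krt15 and Krt16 the bins from 200 to 499 nt held 55, 87 and 67 sites, so that the 300 to 399 nt bin stood out less. No keratin site lay within the first 100 nt. The first 300 nt alone held 10.1% ± 2.49 of sites, not far from 8.44% ± 0.730 in the other genes of the same range of span. Without Krt78 and with the range narrowed to match, these were 10.8% ± 2.42 and 10.1% ± 1.15. The first 1000 nt held 39.8% ± 11.8 of keratin sites. Spans cover every annotated transcript, so the distance is from the outermost start, and without exon positions it is a distance on the genome.

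**Figure D3:**
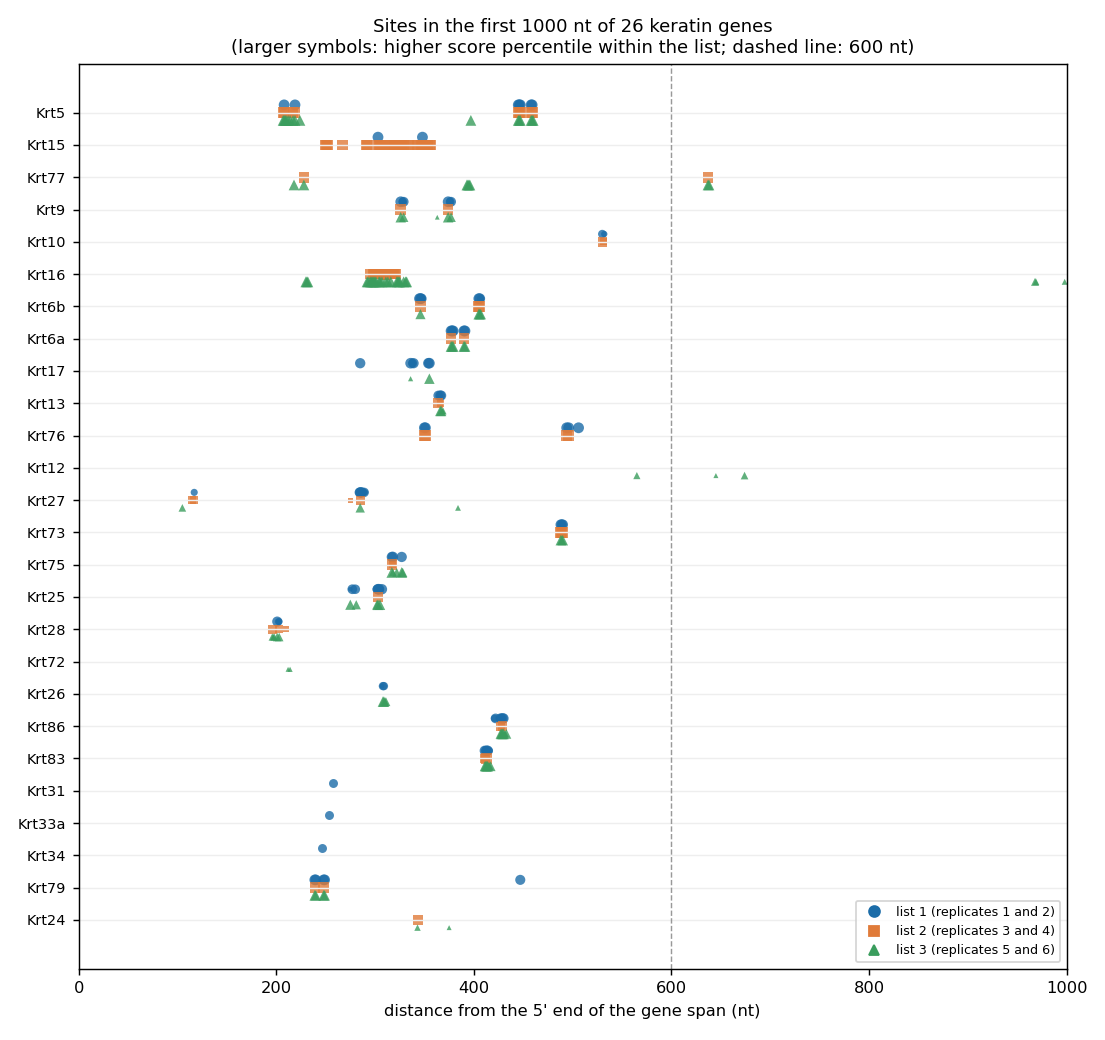
Distance of each site from the 5′ end of its gene span (x axis, nt) in the 26 keratins (y axis) with a site in the first 600 nt; colour and shape mark the list and size the score percentile within the list. Most symbols fall between 200 and 500 nt in genes of both types.

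Recurrent regions of the window came from many classes. Of the 51 keratin regions found in all 3 lists, 19 lay in it, in 13 genes. Among them were regions centred 378 and 391 nt from the 5′ end in Krt6a, 347 and 406 nt in Krt6b, 328 and 376 nt in Krt9, 305 nt in Krt25, 203 nt in Krt28, 367 nt in Krt13, 489 nt in Krt73, 323 nt in Krt75, 244 nt in Krt79, and 414 and 427 nt in the hair keratins Krt83 and Krt86. By class, all 5 hair keratins with a site and 7 of 8 inner root sheath and companion keratins had a site there. So did 4 of 4 stress and appendage keratins and 2 of 2 basal keratins with a site. The same held for 3 of 4 suprabasal, 3 of 4 mucosal and corneal and 2 of 5 unclassed keratins with a site. None of the 3 simple keratins with sites did: Krt19, Krt20 and Krt23 had their highest-scoring sites 3744, 5453 to 5455 and 7377 nt from the 5′ end. Krt71, Krt42, Krt78, Krt80, Krt90 and Krt4 also had none in it. The counts of genes and regions in the window have no background here. The 51 regions had a median distance of 2228 nt from the 5′ end. In 12 of 24 genes with such a region, the one of highest mean percentile lay in the window. Over the 3 lists together, the window held 0% of sites of simple, 14.9% of unclassed and 20.7% of suprabasal keratins. In the other classes it held 36.5% to 100%. Among the hair keratins, Krt31, Krt33a and Krt34 had 1 site each, in list 1 alone. Krt83 and Krt86 shared positions under a shift of 16 nt, so the hair genes may not count separately.

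A smaller share of keratin sites than of other sites lay at the 3′ side of the genes. The last 25% of the span held 33.1%, 16.2% and 30.7% of keratin sites in lists 1, 2 and 3 (26.7% ± 9.13), against 51.7%, 43.6% and 51.8% (49.0% ± 4.72) in other protein-coding genes of the same range of span. The keratin share depends on where the span ends: with spans extended by 1000 nt at the 3′ end it was 14.7%. The number of sites there was not smaller: per gene, the last 25% held 1.96, 0.585 and 1.89 sites over all 53 keratins and 0.906, 0.398 and 0.756 over the 13694 other genes of that range. In Krt78, sites did gather at the 3′ side, with regions in all 3 lists centred 964, 1096 and 1887 nt from the 3′ end and a further one in the interior of the span.

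**Figure D4:**
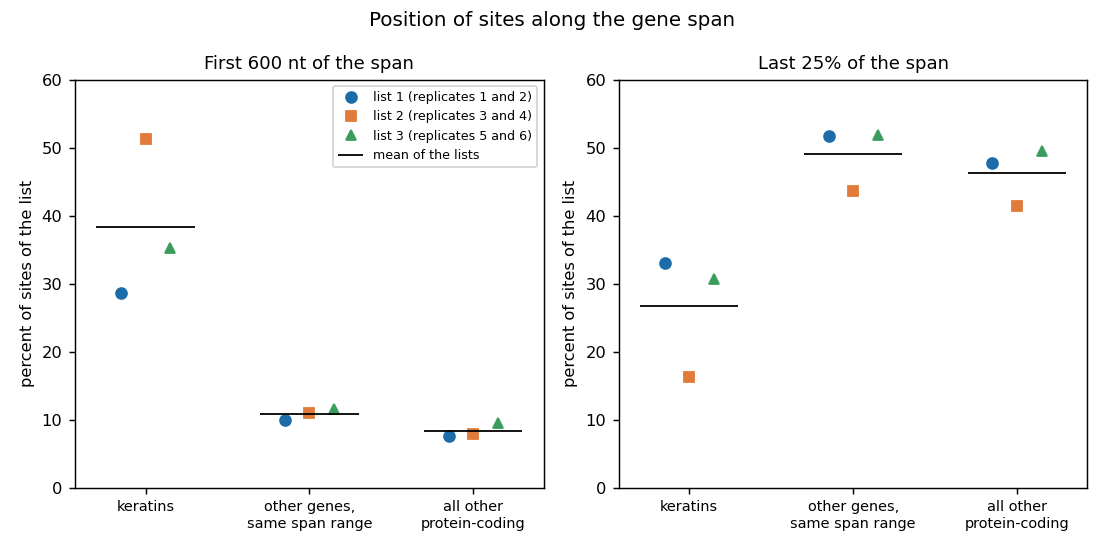
Percent of sites of each list (y axis) in the first 600 nt (left) and the last 25% (right) of gene spans, for keratins, other protein-coding genes in the same range of span, and all other protein-coding genes (x axis). Symbols are single lists and lines their means. Keratins are above the other genes on the left and below them on the right in every list.

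Krt5 carried the strongest of the 51 keratin regions found in all 3 lists, while regions missing from a list reached higher scores. Ranked by the percentile of the highest score within each list, averaged over lists, the first 5 of the 51 were 3 of Krt5 and 2 of Krt6a. The first 2 lay in Krt5 on the minus strand of chromosome 15, at 101712458 to 101712460 and 101712445 to 101712447 (GRCm38), centred 446 and 459 nt from the 5′ end. They lie 11 nt apart, just past the joining distance. Highest scores were 390, 279 and 411 in the former and 367, 250 and 408 in the latter, in lists 1, 2 and 3. Another Krt5 region at 101712681 to 101712698, centred 216 nt from the 5′ end, had 287, 195 and 353. All 3 regions were above the 99th percentile of every list. The other 4 Krt5 regions, centred 1311, 4766, 5323 and 5778 nt from the 5′ end, had lower scores, at most 122.

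In Krt6a the regions lay at 101693926 to 101693928 and 101693914 to 101693915 on chromosome 15, with highest scores of 422, 177 and 417 and of 411, 177 and 400. They were centred 378 and 391 nt from the 5′ end, in the same spacing as the first 2 Krt5 regions at 446 and 459 nt. Regions of the 2 genes may therefore not count separately. In Krt6b the region with the highest mean percentile, at 101679886 to 101679888, had 150, 111 and 152, below both Krt6a regions in each list. The type I gene with the strongest region in all 3 lists was Krt13, at 100119755 to 100119759 on chromosome 11, 1809 nt from the 5′ end, with 139, 126 and 223.

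Some of the highest scores lay in keratins and recurred poorly between lists. Within the first 600 nt, Krt15 had 2, 31 and 0 sites in lists 1, 2 and 3, with scores of 558 and 601 in list 1 and of up to 455 in list 2. Krt16 had 0, 22 and 25 sites there, with highest scores of 400 in list 2 and 598 in list 3. Krt76 had 5, 4 and 0, with scores of up to 708.396 in lists 1 and 2. This is the highest value of each of the 3 lists, shared by 12, 1 and 3 sites, so sites at it cannot be ranked among themselves. In Krt77, list 3 alone had sites at that value, 4085 to 4099 nt from the 5′ end. Each of these runs is therefore missing from at least 1 list, unlike those of Krt5 and Krt6a. Of sites at the highest value, keratins held 4 of 12 in list 1, 1 of 1 in list 2 and 3 of 3 in list 3.

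**Figure D5:**
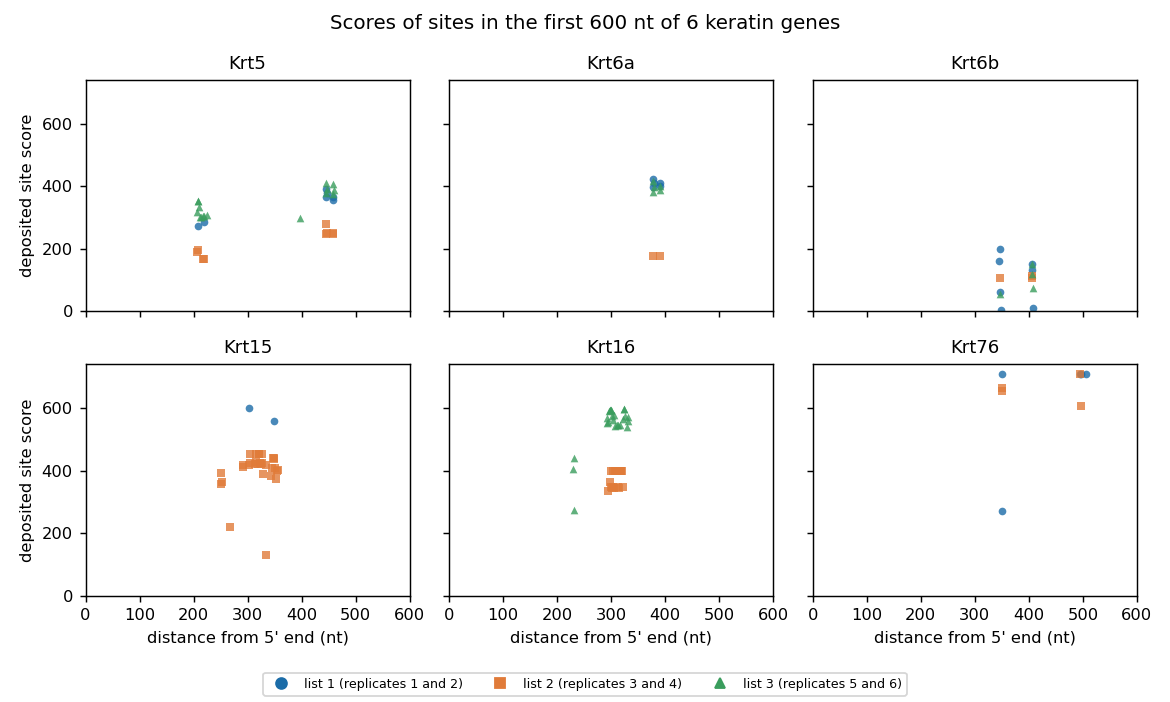
Deposited score (y axis) of sites against distance from the 5′ end (x axis, nt) in the first 600 nt of 6 keratins, by list. Krt5, Krt6a and Krt6b have sites of all 3 lists at the same places, Krt15 has 31 sites in list 2 and 0 in list 3, Krt16 lacks list 1 and Krt76 lacks list 3.

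Keratins took a larger share of the strongest sites than of all sites. Among the 1% of sites with the highest scores in each list they held 19 of 737 (2.58%), 65 of 401 (16.2%) and 55 of 539 (10.2%) in lists 1, 2 and 3, against 0.427%, 0.477% and 0.605% of all sites. In list 2, Krt15 gave 30 and Krt16 gave 22 of the 65, and in list 3, Krt16 gave 25 and Krt5 16 of the 55. The median score percentile of a keratin site was 75.9, 93.9 and 76.5 in the lists, and that of a site in other protein-coding genes 48.0, 45.8 and 46.7.

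The same nucleotide was reported by all 3 lists at 77 of 547 keratin nucleotides. These 77 made up 24.5% of keratin sites in list 1 (95% exact binomial interval 19.9 to 29.7), 40.3% in list 2 (33.3 to 47.6) and 23.6% in list 3 (19.1 to 28.6). In other protein-coding genes the shares were 17.8%, 33.1% and 22.7%. Keratins were higher in each list, by 6.74, 7.19 and 0.952 percentage points (mean difference 4.96 ± 3.48, SD, n = 3 lists). The same 77 nucleotides count in every list, so the 3 differences are not independent and their SD does not measure replication. Against other genes in the keratin range of span the differences were 6.09, 4.94 and 1.49 points. Krt5 held 13 such nucleotides, Krt6b and Krt42 held 7 each, Krt6a 6, and Krt15 and Krt79 5 each. Krt77, with 30 nucleotides, and Krt76, with 10, held none.

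Near-identical copies limit what can be read from single genes. Krt33a, Krt34 and Krt31 each had 1 site, in list 1, at 253, 246 and 257 nt from the 5′ end, with scores of 18.2, 18.2 and 18.1. In Krt83 and Krt86, 4, 2 and 7 sites of lists 1, 2 and 3 coincided when positions were shifted by 16 nt, and the scores of matched sites differed by at most 1.09-fold in list 1, 1.83-fold in list 2 and 2.33-fold in list 3. In Krt6a and Krt6b, 6 list 1 sites near the 3′ side coincided under a shift of 69 nt, with scores of 29.1 and 32.8 or 35.3 and 36.3 at the strongest of them. Krt5 and Krt6a also had sites in the same spacing in list 1, at 445 to 447 and 458 to 459 nt and at 377 to 379 and 390 to 391 nt. Scores at 446 nt in Krt5 and 378 nt in Krt6a were 390 and 422 in list 1 and 411 and 417 in list 3. List 2 scores at 445 and 377 nt were less alike, at 246 and 177. These pairs were chosen after the values were seen. No source used here says how reads with several alignments were treated, so the split of sites within these groups is uncertain.

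Genes that anchor or bundle keratin filaments were also covered. Of 24 genes of desmosomes, hemidesmosomes, plakins and filaggrins, 17 had a region in all 3 lists, against the background of 17% of protein-coding genes. The median of the 24 was 39.5 sites over the 3 lists against 0 for all protein-coding genes. Spans of the 24 genes were not matched to those of the background. Jup, the desmosomal plakoglobin, had 34, 30 and 29 sites and 9 regions. The desmosomal cadherin genes Dsg1a and Dsg1b had 45, 16 and 47 and 40, 18 and 30 sites, with 8 regions each, and Plec, the cytolinker plectin, had 33, 24 and 35 with 8. How reads aligning to both Dsg1a and Dsg1b were treated is not known here. Pkp1, a desmosomal plaque protein, had 28, 23 and 30 with 7 regions, and Flg2, a filaggrin-like protein, had 36, 10 and 51 with 6. Dsc1, a desmosomal cadherin, also had 6 regions, with 31, 13 and 24 sites. Flg, Pkp2, Dsc2, Dsg2 and Tchp had no site. Of 15 intermediate filament genes other than keratins, 3 had a site (background 34.7%): the nuclear lamin genes Lmna, with 13, 4 and 10, and Lmnb1, with 10, 3 and 11, and Synm with 1, 1 and 0. Vim, the filament gene of mesenchymal cells, was among the 12 without a site.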

How the data were processed

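The values used were 3 lists of sites, 1 nt wide, that the authors deposited on replicates 1 and 2, 3 and 4, and 5 and 6. Calling used the inputs, per the file headers. The score of a site is the authors' deposited value, its scale is not stated, and it was compared within a list only. HOMER, HISAT2 2.1.0 and cutadapt 1.16 are named, without roles, in the submitters' processing notes. No source used here gives the caller of these lists, its settings, or the treatment of PCR duplicates and of reads with several alignments. Called sites can depend on RNA abundance, depth and the weighting of input.

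Genes, spans and strands came from RefSeq tables on GRCm38.p6, the build the notes name. Strand came from the promoter table where it lists the gene and otherwise from the strand with most sites. Sites within a span on its strand were counted, also under several spans. Counting was tested on simulated sites. Python 3.11.15, pandas 2.3.3 and scipy 1.17.1 were used. Intervals are exact binomial (Clopper-Pearson, 95%). Keratins with a site were all named, with the 5 regions of highest mean percentile and the 6 filament attachment genes with most regions in all 3 lists and a seventh, Dsc1, tied with the last; other genes, positions and pairs were named after their values were seen. The members, classes and gene lists were chosen with earlier results of these data known, and Krt88 was placed among the unclassed genes after its row was seen. The motif UGG at regions was not analysed, since no genome sequence was used here.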

Additional observations from a re-analysis of the deposited data

How the results depend on the processing

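Lists were left out in turn, sites were limited to scores at or above the median of their list, joined when adjacent or at up to 50 nt, counted in spans extended by 1000 nt at the 3′ end, or left out under several protein-coding spans. Keratins with a site numbered 32 to 35 under these settings, keratins with a region in all lists used 22 to 29, and filament attachment genes with such a region 17 to 18. The difference of basal and suprabasal keratins lay between 7.80 and 13.1 sites per gene, including without Krt78 and without Krt15, Krt16, Krt76 and Krt77, settings chosen after seeing the data. Results moved by more than the SD over lists in 3 cases. The share of keratin sites in the last 25% of the span was 14.7% with extended spans, where the last 25% includes the added sequence. The share of keratin sites on a nucleotide of all lists used was 40.8% to 49.4% when a list was left out, since fewer lists then had to coincide. The share in the first 600 nt became 10.1% with a window of 300 nt. No paired analysis was possible because each list combines 2 replicates and no value of a single library was used. The share of regions with UGG was not run. Read depth is unknown and limits every statement on genes without sites.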

Other observations

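Few sites lay just outside the keratin spans. Within 1000 nt upstream, outside other protein-coding spans, there was 1 site, in list 2, 714 nt from the 5′ end of Krt10, with a score of 332, while no site of list 2 within the Krt10 span was above percentile 71.3. Within 1000 nt downstream there were 2 sites, both in list 2, 377 nt beyond Krt5 with a score of 21.1 and 803 nt beyond Krt23 with a score of 10.9. The keratin pseudogenes Krt74 and Krt8-ps held 0 sites in the 3 lists.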
